A study of Mus musculus with 6 samples.

Results

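The genes described here are 49 genes of DNA replication licensing and synthesis, chosen by name from the 17997 genes listed in the deposited table. All 49 were found, and all 49 were among the 12657 genes tested. Their transcripts were measured in 6 RNA-seq libraries of sorted mouse LT-HSC, the long-term haematopoietic stem cells from which all blood lineages are renewed. NPMc_Flt3ITD animals carried NPMc+, a mutant nucleophosmin that is misplaced to the cytoplasm, together with Flt3-ITD, a duplication inside Flt3 that leaves this growth factor receptor active without its ligand. Flt3ITD animals carried Flt3-ITD, and Mx animals, the control named in the design, carried the MxCRE transgene, a recombinase driven by an interferon-inducible promoter. Each group had 2 biological replicates. All animals were C57BL/6 mice of 8 to 11 weeks. The labels name MxCRE for the Mx group, and do not say whether the mutant animals also carried it. Animals with NPMc+ and without Flt3-ITD were not analysed here. The libraries were made from small numbers of sorted cells, and neither the sort markers nor any pooling of animals are stated in the labels.

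A cell copies its genome once per cycle in 2 separated steps. In licensing, the origin recognition complex (ORC), Cdc6 and Cdt1 load the Mcm2 to Mcm7 helicase onto DNA as an inactive ring, and in S phase Cdc45 and the GINS complex turn that ring into the active helicase, behind which the polymerases, the sliding clamp and the nucleotide-making enzymes work. Most of these genes are transcribed at the G1 to S transition under E2F factors. LT-HSC are known to be mostly quiescent, and quiescent cells are known to carry little of many licensing factors. In RNA from bulk samples, fewer cells in cycle and less RNA per cell cannot be told apart.

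The recovered depth was 15618802 to 37038893 reads per library, so that 1 read was worth 0.0289 to 0.0657 CPM, and the smallest value of any member rested on 221 reads. Rn45s, the ribosomal RNA precursor, took between 15.7% of the recovered reads in Mx replicate 2 and 25.1% in Mx replicate 1. Values are the authors' normalized read counts scaled to library size (CPM). Fold changes were computed on log2(CPM + 1) with limma over all genes tested, with Benjamini-Hochberg adjusted p under 0.05 as the threshold, and are given with their standard error (SE). With 2 libraries per group, p-values set a difference against the spread between these few libraries, moderated over all genes tested. All 10 LT-HSC markers, among them Procr, Slamf1 and Hlf, were above 0 in all 6 libraries. So were the erythroid marker Car1 and the granulocyte and monocyte marker Mpo. In each library 14026 to 16226 of the 17997 genes were above 0. The T cell markers Cd3e, Cd3g, Cd4 and Cd8a were below 4 CPM throughout. Nkg7, the fifth gene of the T and NK cell list, was at 291 and 280.2 CPM in NPMc_Flt3ITD, at 249.5 and 179 CPM in Flt3ITD and at 76.3 and 90.3 CPM in Mx. It rose against Mx in both mutant groups, with a log2 fold change of 1.77 (adjusted p = 0.00561 in limma) in NPMc_Flt3ITD and of 1.34 (adjusted p = 0.0145) in Flt3ITD. The libraries also differed in ways that the genotypes do not name. Xist, which is read from the inactive X, stood at 259 and 625 CPM in NPMc_Flt3ITD, at 37.2 and 547 CPM in Flt3ITD and at 1007 and 1038 CPM in Mx, while the Y-linked gene Ddx3y stood lowest in Mx. Junb, an immediate early gene, stood higher in every replicate 1, and the B and plasma cell markers summed to more in replicate 2 of every group. The part of these differences in the results below was not tested.

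Replication genes as a whole stood highest in Flt3ITD. The 49 members summed to 4695 and 4723 CPM in NPMc_Flt3ITD, to 7524 and 6696 CPM in Flt3ITD and to 4941 and 4686 CPM in Mx. The NPMc_Flt3ITD and Mx sums overlapped, and both Flt3ITD sums lay above all 4 others. Gene by gene, 42 of the 49 members (85.7%) had both Flt3ITD libraries above all 4 other libraries, a pattern that 16.3% of all genes tested showed. The exceptions were Orc3, Orc4, Gins3, Rfc1, Rfc2, Rpa3 and Chaf1b.

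**Figure D1:**
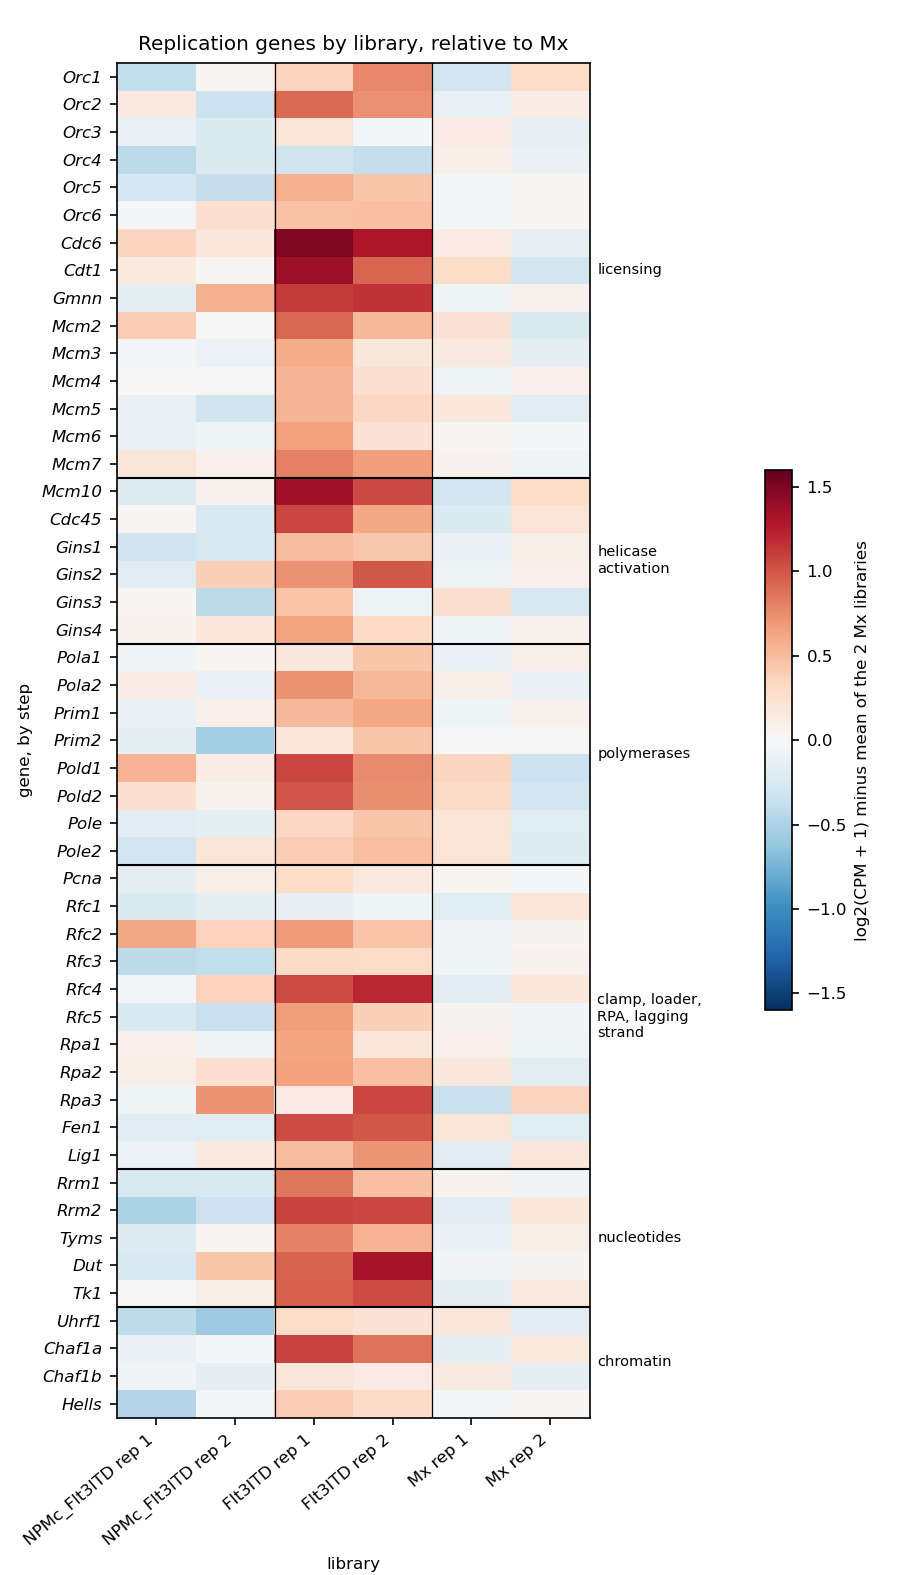
Log2(CPM + 1) of each of the 49 replication genes in each of the 6 libraries, minus the gene's mean over the 2 Mx libraries. Genes are in rows by step, and the NPMc_Flt3ITD, Flt3ITD and Mx libraries are in columns from left to right. The 2 Flt3ITD columns hold the highest values for 42 of the 49 genes.

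In Flt3ITD against Mx, 11 of the 49 members (22.4%) rose and none fell, against 2.12% of all genes tested that rose and 2.43% that fell. The 11 were Cdc6, Cdt1, Gmnn, Mcm7, Mcm10, Rfc4, Fen1, Rrm2, Dut, Tk1 and Chaf1a. The median log2 fold change over the 49 was 0.56, with a range of -0.35 to 1.39, beside a median of 0.01 over all genes tested. Without a test, 43 members had both Flt3ITD libraries above both Mx libraries (26.6% of all genes tested did) and 1 member, Orc4, had both below (27.3%). With 1 library left out, the members' median was 0.48 without Flt3ITD replicate 1 and 0.63 without Flt3ITD replicate 2. It was 0.57 without Mx replicate 1, 0.54 without Mx replicate 2 and 0.56 without either NPMc_Flt3ITD library. In these fits the median over all genes tested lay between -0.01 and 0.01. The count of 11 became 5 with edgeR and 22 with DESeq2 on the recovered reads. Of all genes tested 138 and 752 rose in these 2 fits, beside 268 in the main fit. The count was 0 when no filter on low values was applied, a setting under which none of the 17997 genes passed. Over the 15 alternatives run, which include the fits with 1 library left out, the log2 fold changes of the 11 genes lay between 0.61 for Mcm7 and 1.52 for Cdc6. The calls of Mcm10, Mcm7, Chaf1a and Cdt1 were the least steady, passing in 3, 4, 4 and 5 of the 15, while that of Cdc6 passed in 11.

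In NPMc_Flt3ITD against Flt3ITD, 3 of the 49 members (6.12%), Cdc6, Fen1 and Rrm2, fell and none rose, against 0.901% of all genes tested that fell and 0.277% that rose. The median log2 fold change was -0.62, with a range of -1.49 to 0.02, beside 0.03 over all genes tested. In 45 of the 49 members both NPMc_Flt3ITD libraries lay below both Flt3ITD libraries, as they did in 23.8% of all genes tested. With 1 library left out, the members' median lay between -0.71 without Flt3ITD replicate 2 and -0.62 without either Mx library. The median over all genes tested lay between -0.01 and 0.04 in these fits. This comparison and the one against Mx share the Flt3ITD libraries, so their values are given side by side and are not 2 separate lines of evidence.

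In NPMc_Flt3ITD against Mx, no member passed the limma test in either direction, where 1.17% of all genes tested passed. Rfc2, Rrm2 and Uhrf1 had an unadjusted p under 0.05 (12.4% of all genes tested did), and edgeR and DESeq2 on the recovered reads also called 0 members. The median log2 fold change was -0.05, with a range of -0.50 to 0.49, and the 95% intervals of 48 members lay between a log2 fold change of -1 and 1. The libraries of both groups overlapped for 36 members, 3 were higher in both NPMc_Flt3ITD libraries (20.4% of all genes tested were) and 10 were lower (22.1%). The failed tests do not show equal levels, since intervals of this width leave room for moderate differences.

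**Figure D2:**
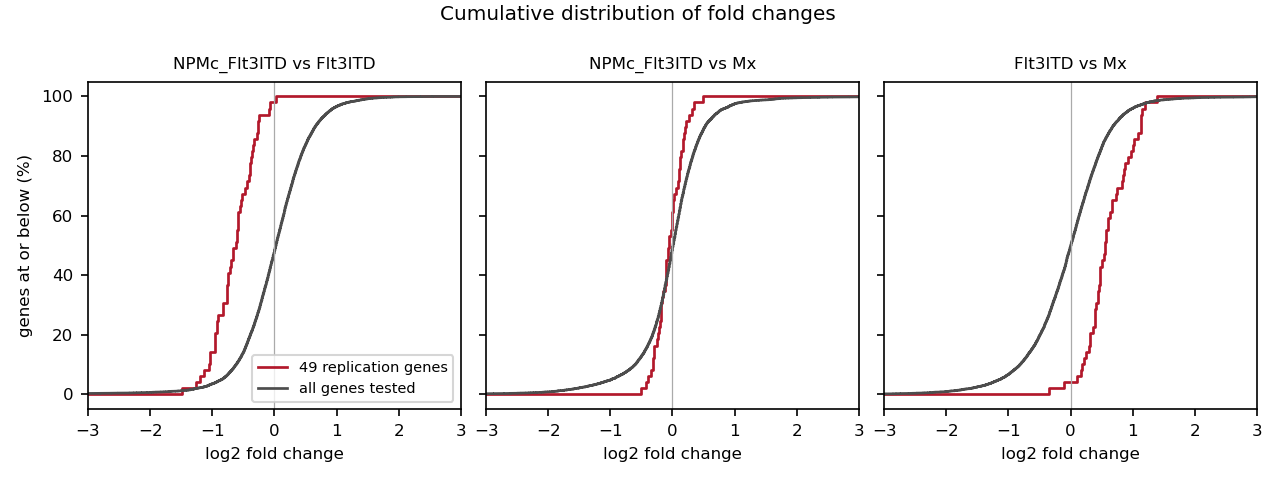
Cumulative share of genes (vertical axis) by log2 fold change on log2(CPM + 1) (horizontal axis) for the 49 replication genes and for all 12657 genes tested, with 1 panel for each comparison. The members' median lies at -0.62 in NPMc_Flt3ITD against Flt3ITD, at -0.05 in NPMc_Flt3ITD against Mx and at 0.56 in Flt3ITD against Mx.

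Libraries with the same replicate number deviated from their group means together, so each comparison was also fitted with replicate number as a block. With the block 28 members (57.1%) rose in Flt3ITD against Mx, where 10.3% of all genes tested rose. Likewise 28 members fell in NPMc_Flt3ITD against Flt3ITD, where 7.07% fell, and no member passed in NPMc_Flt3ITD against Mx, where 5.44% of all genes tested passed in either direction. All 11 and all 3 calls made without the block were among these. Within replicate number 1 the median member differed by 0.63 on the log2 scale between Flt3ITD and Mx, and within number 2 by 0.49. Within both numbers 47 members were higher in Flt3ITD than in Mx, as 35.8% of all genes tested were. Between NPMc_Flt3ITD and Flt3ITD 48 members were lower within both numbers, as 33.3% of all genes tested were. The 17 members that rose against Mx only with the block had log2 fold changes between 0.13 and 1.26 over the 15 alternatives run, with adjusted p between 0.00280 and 0.887. The 25 that fell in NPMc_Flt3ITD against Flt3ITD only with the block lay between -1.41 and -0.23, with adjusted p between 0.000377 and 0.678. Below, a p with the block stands beside a gene where it changed the call.

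Licensing begins with the ORC subunits, which mark origins. None of the 6 subunits passed in any comparison without the block. Orc1, the subunit whose level changes through the cycle, was at 8.27 and 11.5 CPM in NPMc_Flt3ITD, at 14.6 and 19.8 CPM in Flt3ITD and at 8.92 and 14.0 CPM in Mx. Orc2 was at 54.5 and 38.6 CPM in NPMc_Flt3ITD, at 93.2 and 82.3 CPM in Flt3ITD and at 45.0 and 53.6 CPM in Mx, with both Flt3ITD libraries above the others. Its adjusted p in limma was 0.0691 against Mx and 0.0795 for NPMc_Flt3ITD against Flt3ITD, and with the block 0.0143 and 0.0131. Orc5 was at 34.4 and 31.8 CPM in NPMc_Flt3ITD, at 62.0 and 56.8 CPM in Flt3ITD and at 40.4 and 42.6 CPM in Mx. The NPMc_Flt3ITD libraries were the lowest for Orc5, and the comparison with Flt3ITD passed only with the block (log2 fold change -0.82, adjusted p = 0.0768 in limma and 0.0152 with the block). Orc4 was at 49.8 and 56.7 CPM in NPMc_Flt3ITD, at 53.4 and 51.1 CPM in Flt3ITD and at 72.1 and 62.0 CPM in Mx, the member for which both Mx libraries were the highest, and Orc3 and Orc6 also did not pass.

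In the comparisons that involve Flt3ITD, Cdc6 and Cdt1, the loading factors, had the largest fold changes among licensing genes. Cdc6, the ATPase that joins ORC to load the helicase, was at 42.0 and 37.4 CPM in NPMc_Flt3ITD, at 94.2 and 82.2 CPM in Flt3ITD and at 36.0 and 30.0 CPM in Mx. It rose in Flt3ITD against Mx (log2 fold change 1.39, SE 0.20, adjusted p = 0.0137) and fell in NPMc_Flt3ITD against Flt3ITD (log2 fold change -1.13, SE 0.20, adjusted p = 0.0384). Over the 15 alternatives run, its adjusted p lay between 1.28e-07 and 0.0864 for Flt3ITD against Mx and between 5.26e-05 and 0.221 for NPMc_Flt3ITD against Flt3ITD. Its NPMc_Flt3ITD and Mx libraries all lay between 30.0 and 42.0 CPM. Cdt1, the other loading factor, was at 45.7 and 41.7 CPM in NPMc_Flt3ITD, at 107 and 78.6 CPM in Flt3ITD and at 50.1 and 33.2 CPM in Mx and rose in Flt3ITD against Mx (log2 fold change 1.15, SE 0.25, adjusted p = 0.0415). Gmnn encodes geminin, the inhibitor that binds Cdt1 after S phase begins. It was at 37.5 and 62.8 CPM in NPMc_Flt3ITD, at 92.2 and 94.9 CPM in Flt3ITD and at 40.1 and 44.1 CPM in Mx and rose in the same comparison (log2 fold change 1.13, SE 0.25, adjusted p = 0.0421). A loading factor and its inhibitor were therefore both higher in Flt3ITD than in Mx. For NPMc_Flt3ITD against Flt3ITD, Cdt1 and Gmnn passed only with the block, with adjusted p of 0.0786 and 0.101 in limma against 0.00434 and 0.0128.

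**Figure D3:**
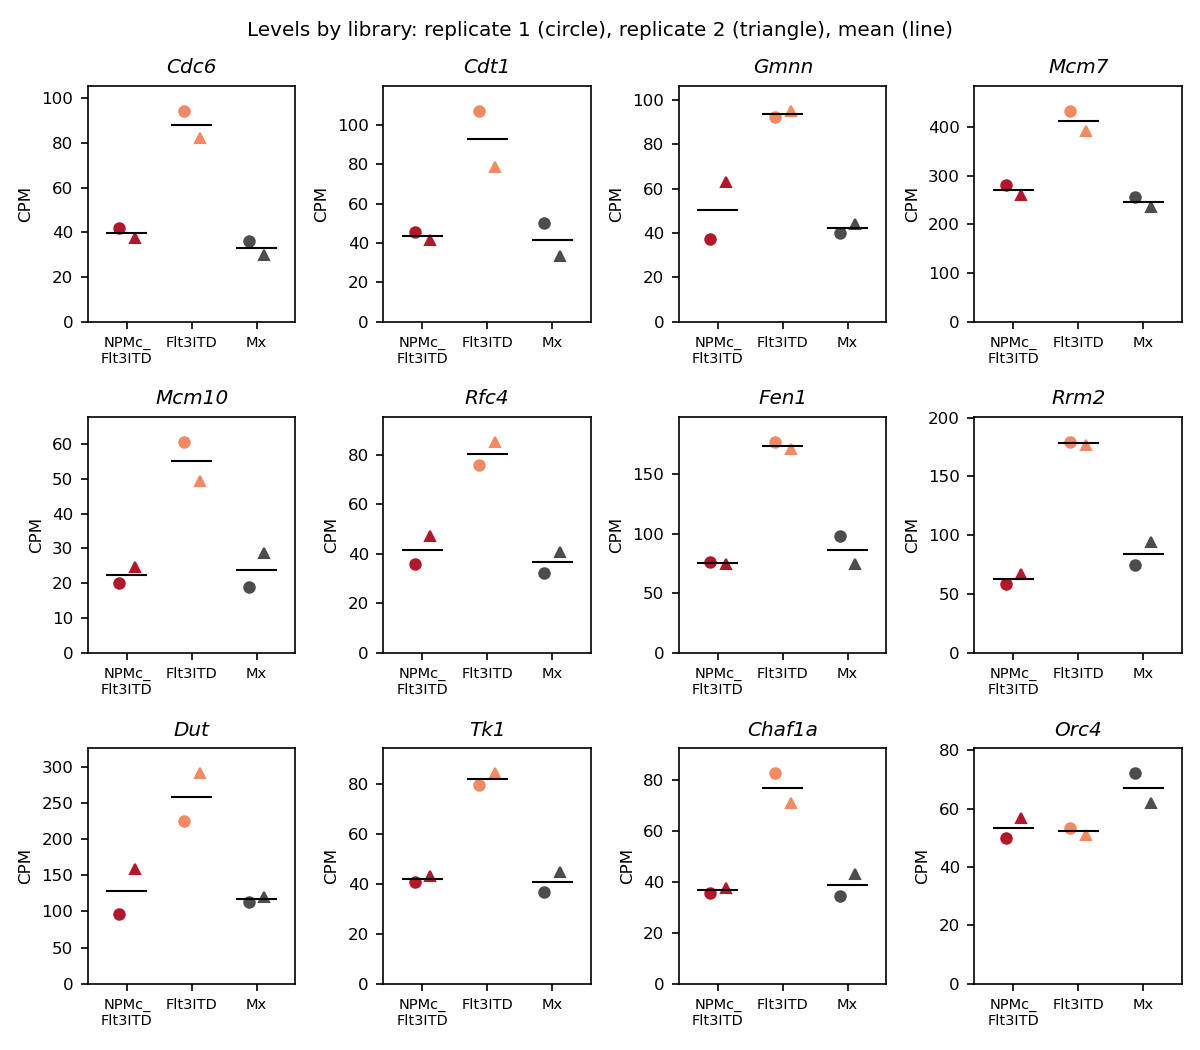
Normalised CPM (vertical axis, linear and starting at 0) of selected replication genes in each library, with 1 panel per gene, a circle for replicate 1, a triangle for replicate 2, a horizontal line for their mean, and NPMc_Flt3ITD, Flt3ITD and Mx from left to right. For Cdc6 both Flt3ITD points (94.2 and 82.2 CPM) lie above the NPMc_Flt3ITD points (42.0 and 37.4 CPM) and the Mx points (36.0 and 30.0 CPM).

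The Mcm2 to Mcm7 subunits, the ring of the replicative helicase, had smaller fold changes than Cdc6 and Cdt1. The 6 subunits had a median log2 fold change of 0.44 in Flt3ITD against Mx and -0.53 in NPMc_Flt3ITD against Flt3ITD. Mcm7 was at 281 and 261 CPM in NPMc_Flt3ITD, at 432 and 392 CPM in Flt3ITD and at 256 and 236 CPM in Mx and rose in Flt3ITD against Mx (log2 fold change 0.74, SE 0.16, adjusted p = 0.0421), the only subunit to pass without the block. The next 3 subunits had the Flt3ITD libraries highest as well. Mcm2 was at 236 and 178 CPM in NPMc_Flt3ITD, at 337 and 258 CPM in Flt3ITD and at 209 and 151 CPM in Mx. Mcm5 was at 202 and 176 CPM in NPMc_Flt3ITD, at 320.3 and 276 CPM in Flt3ITD and at 246 and 196 CPM in Mx. Mcm6 was at 409.8 and 425 CPM in NPMc_Flt3ITD, at 705 and 526 CPM in Flt3ITD and at 452 and 441 CPM in Mx. For Mcm2, Mcm5 and Mcm6, Flt3ITD against Mx passed only with the block, with adjusted p of 0.104, 0.194 and 0.203 in limma against 0.00280, 0.0274 and 0.0426. Mcm3 was at 292 and 277 CPM in NPMc_Flt3ITD, at 447 and 335 CPM in Flt3ITD and at 327 and 266 CPM in Mx, and its highest Mx library lay just below its lower Flt3ITD library. Mcm2, Mcm3, Mcm5, Mcm6 and Mcm7 fell in NPMc_Flt3ITD against Flt3ITD with the block, with adjusted p between 0.00675 for Mcm5 and 0.0433 for Mcm3, whereas in limma without it they were between 0.104 for Mcm7 and 0.272 for Mcm3. Mcm4 did not pass with or without the block.

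Promoters are shown because members moved together and E2F sites are a known feature of this gene class. Those of 4 licensing genes, Cdc6, Mcm5, Mcm6 and Mcm7, were picked as examples that hold E2F letters before the start, and that of Rrm2, the member with the largest difference between NPMc_Flt3ITD and Flt3ITD, as one that does not. RefSeq windows of 250 bases before to 50 bases after the annotated start, on build GRCm38.p6, were matched by symbol for 41 of the 49 members. Pole, Rfc2, Gins2, Gins4, Gins1, Mcm4, Gmnn and Prim2 had no entry. The 250 bases before the start are printed 5′ to 3′ in the direction of the gene, and capitals mark the E2F letters TTTCCCGC, TTTGGCGC, TTTCGCGC or TTTGCCGC on either strand, where matches may overlap. The Cdc6 window is chr11:98907901-98908150 on the plus strand, with 1 match whose first base is at -138 from the start. The Mcm5 window is chr8:75109259-75109508 on the plus strand, with matches on opposite strands at -153 and -149 that share letters. The Mcm6 window is chr1:128359706-128359955 on the minus strand, with such a pair at -110 and -106 and a single match at -47. The Mcm7 window is chr5:138171884-138172133 on the minus strand, with a match at -165. The Rrm2 window is chr12:24708004-24708253 on the plus strand and holds no match.
Cdc6: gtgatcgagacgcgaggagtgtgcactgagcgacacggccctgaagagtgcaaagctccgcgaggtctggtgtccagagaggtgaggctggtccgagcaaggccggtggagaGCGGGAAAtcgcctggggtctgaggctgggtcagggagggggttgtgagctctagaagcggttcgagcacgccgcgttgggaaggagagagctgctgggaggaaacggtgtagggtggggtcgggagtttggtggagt
Mcm5: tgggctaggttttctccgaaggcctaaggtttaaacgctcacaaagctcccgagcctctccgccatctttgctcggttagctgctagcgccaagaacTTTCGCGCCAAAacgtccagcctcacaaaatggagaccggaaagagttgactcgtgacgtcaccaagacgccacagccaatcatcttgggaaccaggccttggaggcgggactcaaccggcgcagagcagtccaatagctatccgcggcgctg
Mcm6: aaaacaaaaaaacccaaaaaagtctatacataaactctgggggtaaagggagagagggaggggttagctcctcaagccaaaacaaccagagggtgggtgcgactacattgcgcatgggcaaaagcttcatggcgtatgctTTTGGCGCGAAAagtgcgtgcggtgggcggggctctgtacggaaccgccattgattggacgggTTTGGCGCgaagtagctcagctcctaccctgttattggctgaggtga
Mcm7: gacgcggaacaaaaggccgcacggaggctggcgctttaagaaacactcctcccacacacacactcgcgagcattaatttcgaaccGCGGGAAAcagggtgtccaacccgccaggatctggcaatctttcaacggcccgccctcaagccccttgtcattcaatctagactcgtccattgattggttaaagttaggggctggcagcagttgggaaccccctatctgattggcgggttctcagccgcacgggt
Rrm2: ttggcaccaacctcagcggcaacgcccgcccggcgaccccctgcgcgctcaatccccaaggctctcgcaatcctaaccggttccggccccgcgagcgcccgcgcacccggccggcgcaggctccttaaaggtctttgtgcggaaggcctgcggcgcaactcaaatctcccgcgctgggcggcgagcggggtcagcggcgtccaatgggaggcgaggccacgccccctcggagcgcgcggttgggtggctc

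Over the full windows, 16 of the 41 matched members (39.0%) held the E2F letters, against 4.65% of the 9429 tested genes with a window and 2.6% of all 27025 genes with one. The members with a match were Orc1, Orc3, Cdc6, Cdt1, Mcm3, Mcm5, Mcm6, Mcm7, Gins3, Pola1, Pold1, Pole2, Rfc3, Lig1, Uhrf1 and Hells. CCAAT, the letters bound by NF-Y, stood on either strand in 25 of the 41 members (61.0%), against 43.2% of tested genes. TTTGAA, the cell cycle homology letters of many G2 and mitosis genes, stood in 5 of the 41 (12.2%), against 14.3% of tested genes. The median GC content was 61.3% in the members' windows and 60.3% in those of tested genes. The 16 with E2F letters had a median log2 fold change of 0.44 in Flt3ITD against Mx, and the 25 without them one of 0.66. A match is a description of the letters, and a window without one says only that these letters are not in it.

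**Figure D4:**
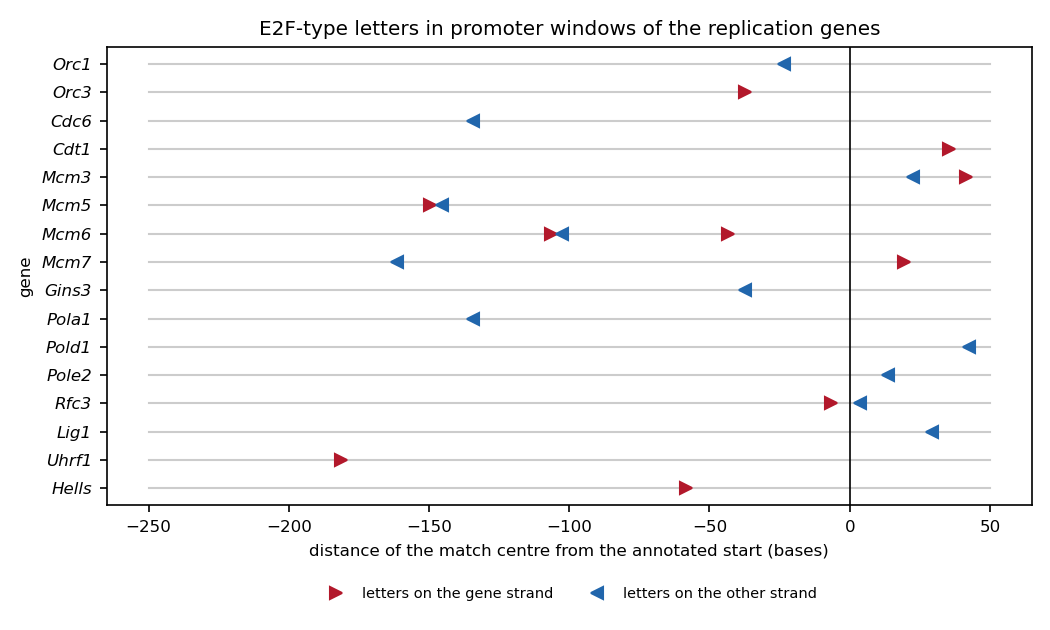
Positions of E2F letters in the promoter windows of the replication genes that hold them, with 1 row per gene. The horizontal axis is the distance in bases of the match centre from the annotated start, and the arrow direction gives the strand. The rows are the 16 genes with E2F letters among the 41 matched, and CCAAT and TTTGAA are not drawn.

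Helicase activation followed the same direction. Mcm10, which helps convert the loaded ring into an active helicase, was at 20.0 and 24.6 CPM in NPMc_Flt3ITD, at 60.5 and 49.5 CPM in Flt3ITD and at 18.9 and 28.7 CPM in Mx and rose in Flt3ITD against Mx (log2 fold change 1.20, SE 0.27, adjusted p = 0.0452). Cdc45, the helicase subunit recruited at firing, was at 34.8 and 28.9 CPM in NPMc_Flt3ITD, at 73.3 and 53.6 CPM in Flt3ITD and at 29.5 and 40.2 CPM in Mx. Gins2, a GINS subunit, was at 16.2 and 24.5 CPM in NPMc_Flt3ITD, at 31.2 and 37.9 CPM in Flt3ITD and at 17.5 and 19.6 CPM in Mx. The Flt3ITD libraries were the highest for all 3 genes, and Cdc45 and Gins2 passed against Mx only with the block, with adjusted p of 0.0866 and 0.110 in limma against 0.0256 and 0.0286. In NPMc_Flt3ITD against Flt3ITD, the log2 fold change was -1.26 for Mcm10 and -0.96 for Cdc45. Both passed only with the block, with adjusted p of 0.0627 and 0.0946 in limma against 0.00891 and 0.0214. The other GINS subunits, Gins1, Gins3 and Gins4, did not pass, and Gins2 did not pass between the mutant groups.

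None of the 8 polymerase genes passed without the block. All 8 had both Flt3ITD libraries above the Mx and the NPMc_Flt3ITD libraries, as 16.3% of all genes tested did. Pola1, the catalytic subunit of the primase-bound polymerase alpha, was at 99.1 and 105 CPM in NPMc_Flt3ITD, at 117 and 140.4 CPM in Flt3ITD and at 95.1 and 111 CPM in Mx. Its partner Pola2 was at 82.7 and 70.3 CPM in NPMc_Flt3ITD, at 126 and 110.4 CPM in Flt3ITD and at 81.8 and 70.4 CPM in Mx. Prim1, the primase catalytic subunit, was at 59.6 and 68.0 CPM in NPMc_Flt3ITD, at 92.6 and 98.8 CPM in Flt3ITD and at 60.9 and 67.5 CPM in Mx. The Pola1 difference from Mx was the smaller, at a log2 fold change of 0.32 beside 0.63 for Pola2 and 0.57 for Prim1. Pold1, the catalytic subunit of the lagging-strand polymerase delta, was at 91.0 and 67.2 CPM in NPMc_Flt3ITD, at 131 and 105 CPM in Flt3ITD and at 78.7 and 48.3 CPM in Mx. Pold2, its accessory subunit, was at 75.8 and 65.3 CPM in NPMc_Flt3ITD, at 127 and 105 CPM in Flt3ITD and at 77.9 and 50.2 CPM in Mx. Pole, the catalytic subunit of the leading-strand polymerase epsilon, was at 43.0 and 43.9 CPM in NPMc_Flt3ITD, at 61.6 and 67.1 CPM in Flt3ITD and at 56.1 and 42.7 CPM in Mx and did not pass with or without the block. With the block Pola2, Prim1, Pold1 and Pold2 rose in Flt3ITD against Mx, with adjusted p of 0.0111, 0.0215, 0.00329 and 0.00451, where limma without it gave 0.0825, 0.0973, 0.0830 and 0.0694. The same 4 genes fell in NPMc_Flt3ITD against Flt3ITD with the block, with adjusted p of 0.0172, 0.0281, 0.0331 and 0.0170, where limma without it gave 0.120, 0.129, 0.284 and 0.155.

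The clamp and its loader were uneven. Pcna, the sliding clamp, was at 326 and 387 CPM in NPMc_Flt3ITD, at 443 and 404 CPM in Flt3ITD and at 369.5 and 356 CPM in Mx. Pcna did not pass in any comparison, with a log2 fold change of 0.22 in Flt3ITD against Mx and a 95% interval of -0.17 to 0.61. Of the 5 subunits of replication factor C, which loads the clamp, Rfc4 was at 35.9 and 47.0 CPM in NPMc_Flt3ITD, at 75.9 and 85.0 CPM in Flt3ITD and at 32.2 and 40.8 CPM in Mx and rose in Flt3ITD against Mx (log2 fold change 1.13, SE 0.22, adjusted p = 0.0319). Rfc5 was at 81.7 and 75.6 CPM in NPMc_Flt3ITD, at 154 and 127 CPM in Flt3ITD and at 100 and 93.8 CPM in Mx. Rfc3 was at 39.1 and 39.8 CPM in NPMc_Flt3ITD, at 65.0 and 64.7 CPM in Flt3ITD and at 50.2 and 54.9 CPM in Mx. For Rfc5 the Flt3ITD libraries were above the rest, with adjusted p of 0.113 against Mx in limma and 0.0225 with the block. Rfc3, Rfc4 and Rfc5 fell in NPMc_Flt3ITD against Flt3ITD with the block, with adjusted p of 0.0214, 0.00634 and 0.00437, where limma without it gave 0.0923, 0.0768 and 0.0614. Rfc1, the large subunit, did not pass in any of these fits.

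Rfc2 showed another pattern. It was at 289 and 244 CPM in NPMc_Flt3ITD, at 303 and 258 CPM in Flt3ITD and at 182 and 195 CPM in Mx, so that both mutant groups lay above Mx and overlapped each other. Its log2 fold change was 0.49 in NPMc_Flt3ITD against Mx (adjusted p = 0.266 in limma) and 0.57 in Flt3ITD against Mx (adjusted p = 0.0968, or 0.0136 with the block). Its exons overlap those of Lat2, an adaptor gene of immune receptor signalling, on the opposite strand. Lat2 averaged 176 CPM in NPMc_Flt3ITD, 61.0 CPM in Flt3ITD and 22.3 CPM in Mx, and the part of shared reads in the Rfc2 values was not tested.

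Among the single-strand binding and lagging-strand genes, Fen1 had the largest fold changes in the comparisons that involve Flt3ITD. Fen1, the flap endonuclease that trims Okazaki fragments, was at 75.9 and 74.5 CPM in NPMc_Flt3ITD, at 177 and 171 CPM in Flt3ITD and at 97.9 and 74.6 CPM in Mx. It rose in Flt3ITD against Mx (log2 fold change 1.02, SE 0.18, adjusted p = 0.0253) and fell in NPMc_Flt3ITD against Flt3ITD (log2 fold change -1.20, SE 0.18, adjusted p = 0.0211). Over the 15 alternatives run, its adjusted p lay between 8.05e-05 and 0.148 for Flt3ITD against Mx and between 1.26e-06 and 0.156 for NPMc_Flt3ITD against Flt3ITD. Its NPMc_Flt3ITD and Mx libraries all lay between 74.5 and 97.9 CPM. Lig1, the ligase that seals the fragments, was at 92.3 and 109.8 CPM in NPMc_Flt3ITD, at 139.8 and 162 CPM in Flt3ITD and at 87.3 and 112 CPM in Mx. It passed only with the block, at an adjusted p of 0.107 in limma and 0.0109 with the block against Mx, and 0.155 and 0.0191 for NPMc_Flt3ITD against Flt3ITD. Rpa2 and Rpa3, encode subunits of the single-strand binding protein RPA. Rpa2 was at 90.6 and 102 CPM in NPMc_Flt3ITD, at 133 and 119 CPM in Flt3ITD and at 96.1 and 75.2 CPM in Mx. Rpa3 was at 35.5 and 62.5 CPM in NPMc_Flt3ITD, at 41.0 and 79.8 CPM in Flt3ITD and at 28.9 and 48.4 CPM in Mx, so that replicate 2 was above replicate 1 in every group and the groups overlapped. Both rose in Flt3ITD against Mx with the block only, with adjusted p of 0.118 and 0.382 in limma against 0.0296 and 0.0345, and Rpa1 did not pass.

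All 5 nucleotide-making genes had both Flt3ITD libraries above all others, as 16.3% of all genes tested did. Of the 5 genes 3 rose in Flt3ITD against Mx, where 2.12% of all genes tested rose. The median log2 fold change of the 5 was 1.0 in Flt3ITD against Mx and -0.95 in NPMc_Flt3ITD against Flt3ITD. Rrm2, the S-phase subunit of ribonucleotide reductase, was at 58.8 and 66.6 CPM in NPMc_Flt3ITD, at 179 and 177 CPM in Flt3ITD and at 74.5 and 94.2 CPM in Mx. It rose in Flt3ITD against Mx (log2 fold change 1.08, SE 0.18, adjusted p = 0.0217) and fell in NPMc_Flt3ITD against Flt3ITD (log2 fold change -1.49, SE 0.18, adjusted p = 0.00805), the lowest adjusted p of any member in these comparisons without the block. Over the 15 alternatives run, its adjusted p lay between 4.21e-05 and 0.131 for Flt3ITD against Mx and between 8.03e-10 and 0.0756 for NPMc_Flt3ITD against Flt3ITD. Its NPMc_Flt3ITD libraries also lay below both Mx libraries, at a log2 fold change of -0.42 that did not pass (95% interval -0.82 to -0.01, adjusted p = 0.393 in limma). Dut, the enzyme that removes dUTP, was at 97.0 and 158 CPM in NPMc_Flt3ITD, at 225 and 291 CPM in Flt3ITD and at 113 and 119.9 CPM in Mx and rose against Mx (log2 fold change 1.13, SE 0.24, adjusted p = 0.0409). Tk1, the thymidine kinase of S phase, was at 40.7 and 43.2 CPM in NPMc_Flt3ITD, at 79.7 and 84.4 CPM in Flt3ITD and at 36.6 and 44.9 CPM in Mx and rose against Mx (log2 fold change 1.0, SE 0.19, adjusted p = 0.0311). For Dut as for Tk1 the lower Flt3ITD library lay well above both Mx libraries. Rrm1, the large subunit of ribonucleotide reductase, was at 197 and 199.9 CPM in NPMc_Flt3ITD, at 428 and 329 CPM in Flt3ITD and at 245 and 228 CPM in Mx. Tyms, thymidylate synthase, was at 51.7 and 60.8 CPM in NPMc_Flt3ITD, at 105 and 88.5 CPM in Flt3ITD and at 55.9 and 64.5 CPM in Mx. Rrm1 and Tyms passed against Mx only with the block, with adjusted p of 0.0691 and 0.0782 in limma against 0.00685 and 0.0193. In NPMc_Flt3ITD against Flt3ITD, the other 4 genes passed only with the block, at adjusted p of 0.00196 for Rrm1, 0.00220 for Dut, 0.00580 for Tk1 and 0.0160 for Tyms, where limma without it gave 0.0502, 0.0769, 0.0553 and 0.0837.

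Of the 4 genes that rebuild or maintain chromatin behind the fork, Chaf1a, a subunit of the histone chaperone CAF-1, was at 35.8 and 37.7 CPM in NPMc_Flt3ITD, at 82.7 and 71.2 CPM in Flt3ITD and at 34.6 and 43.1 CPM in Mx. It rose in Flt3ITD against Mx (log2 fold change 0.97, SE 0.20, adjusted p = 0.0374). Uhrf1, which brings the maintenance DNA methyltransferase to new DNA, was at 113 and 99.7 CPM in NPMc_Flt3ITD, at 184 and 176 CPM in Flt3ITD and at 171 and 132 CPM in Mx. For Uhrf1 the NPMc_Flt3ITD libraries lay below those of both other groups, with a log2 fold change of -0.50 against Mx (adjusted p = 0.285 in limma and 0.0531 with the block). In NPMc_Flt3ITD against Flt3ITD, Chaf1a and Uhrf1 passed only with the block, with adjusted p of 0.0502 and 0.0801 in limma against 0.00622 and 0.00609. Chaf1b, the partner subunit of CAF-1, and Hells, a chromatin remodeller, did not pass.

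The 13 members not given by library were Orc3, Orc4, Orc6, Mcm4, Gins1, Gins3, Gins4, Prim2, Pole2, Rfc1, Rpa1, Chaf1b and Hells, apart from the values of Orc4 above. Their log2 fold changes ran from -0.76 to 0.02 in NPMc_Flt3ITD against Flt3ITD, from -0.35 to 0.12 in NPMc_Flt3ITD against Mx and from -0.35 to 0.48 in Flt3ITD against Mx. None of the 13 passed in any comparison with or without the block. The full range of differences with their intervals is shown in the plot of fold changes by gene.

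**Figure D5:**
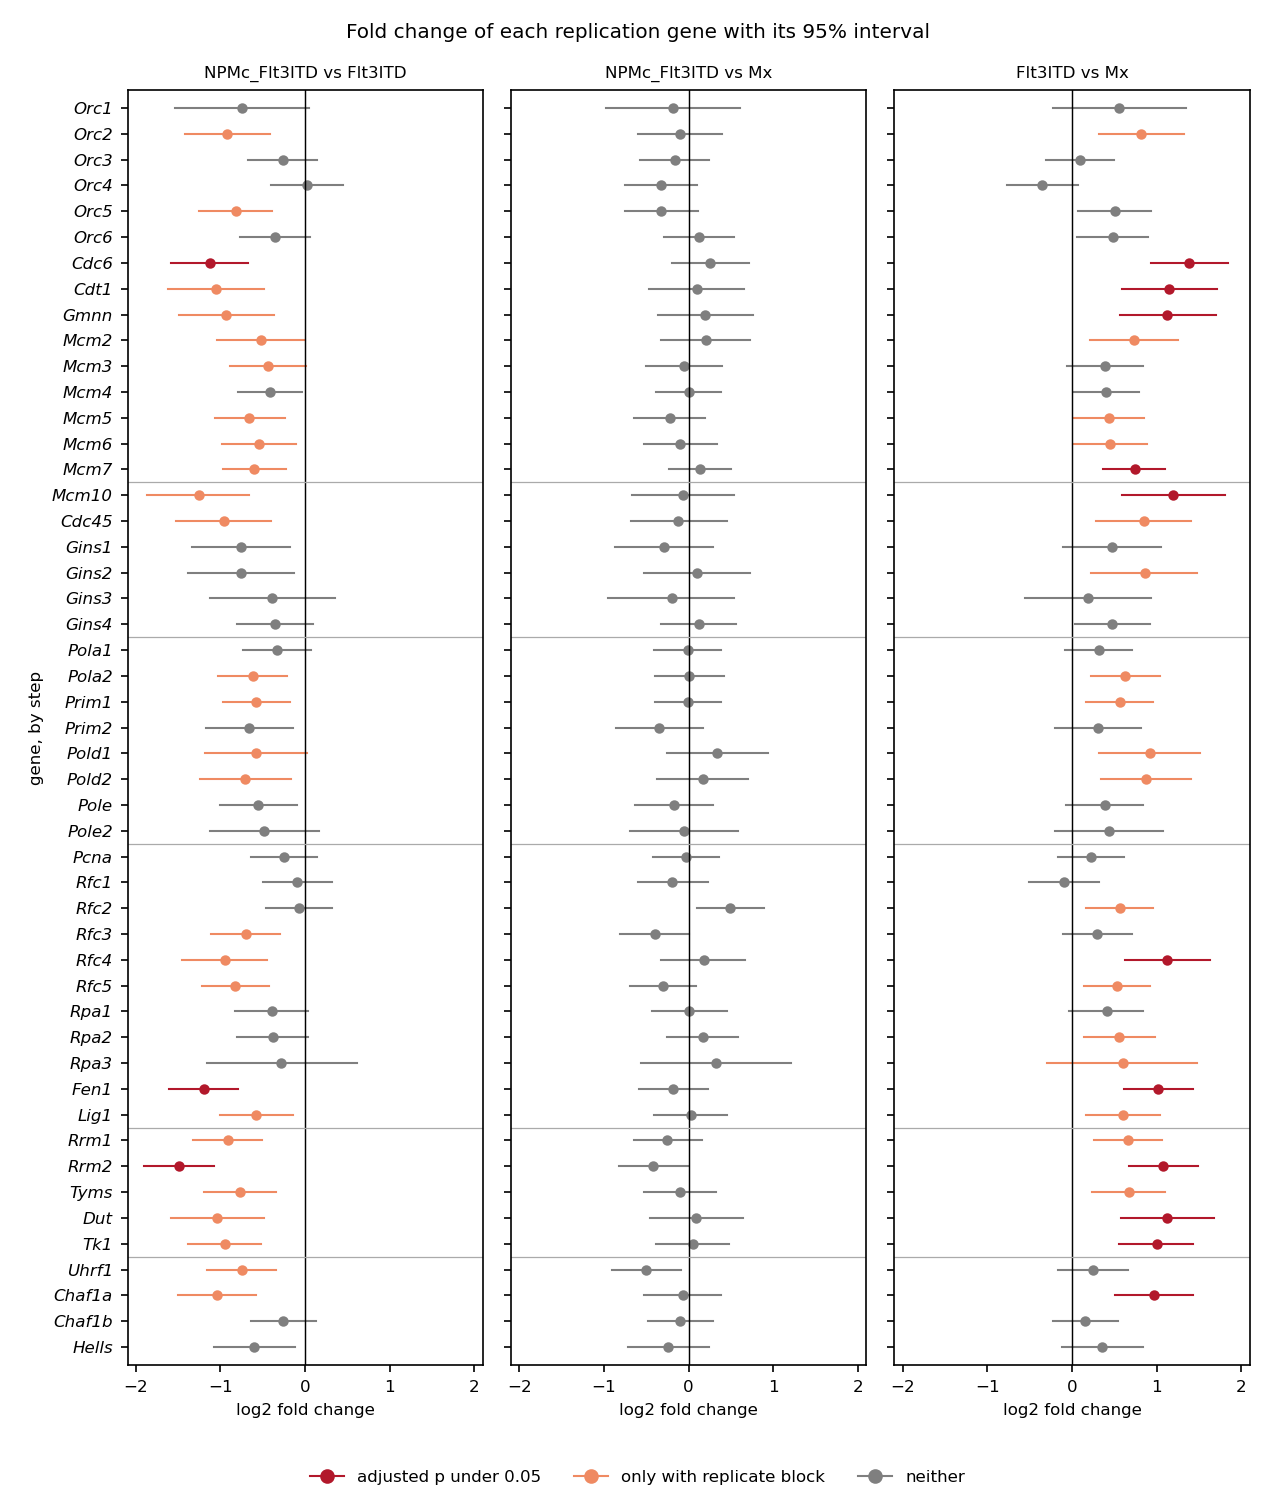
Log2 fold change on log2(CPM + 1) with its 95% interval from limma (horizontal axis) for each of the 49 replication genes (rows, by step), with 1 panel per comparison and a line at 0. Intervals are centred to the left of 0 for 48 genes in NPMc_Flt3ITD against Flt3ITD and to the right of 0 for 47 genes in Flt3ITD against Mx.

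Outside the 49, a further 54 genes of origin firing, fork protection, licensing control, nucleotide supply and chromatin copying, all of them tested, were counted in the same way. In Flt3ITD against Mx, 6 of the 54 rose and none fell, where 2.12% of all genes tested rose, and 22 rose with the block, where 10.3% did, with a median log2 fold change of 0.49. In NPMc_Flt3ITD against Flt3ITD, 3 of the 54, Ccna2, Cad and Mthfd1, fell and none rose, where 0.901% of all genes tested fell, and 20 fell with the block, where 7.07% did, with a median of -0.54. None passed in NPMc_Flt3ITD against Mx, where 5 had an unadjusted p under 0.05, as 12.4% of all genes tested did. Mthfd1, a folate enzyme that supplies one-carbon units for purines and thymidylate, was at 78.9 and 82.5 CPM in NPMc_Flt3ITD, at 304 and 309 CPM in Flt3ITD and at 125 and 94.2 CPM in Mx and rose in Flt3ITD against Mx (log2 fold change 1.49, SE 0.18, adjusted p = 0.00845). Cad, the enzyme that opens pyrimidine synthesis, was at 54.3 and 47.9 CPM in NPMc_Flt3ITD, at 110.0 and 105 CPM in Flt3ITD and at 54.1 and 42.9 CPM in Mx (log2 fold change 1.14, SE 0.19, adjusted p = 0.0217). Timeless, a fork protection factor, was at 35.9 and 47.0 CPM in NPMc_Flt3ITD, at 76.4 and 77.6 CPM in Flt3ITD and at 38.7 and 36.5 CPM in Mx (log2 fold change 1.01, SE 0.20, adjusted p = 0.0341). For all 3 genes both Flt3ITD libraries were the highest. Rnaseh2a, the catalytic subunit of the RNase H2 that removes ribonucleotides from DNA, was at 65.0 and 65.2 CPM in NPMc_Flt3ITD, at 91.5 and 84.0 CPM in Flt3ITD and at 54.5 and 49.6 CPM in Mx (log2 fold change 0.74, SE 0.17, adjusted p = 0.0478). Its partner Rnaseh2c was at 24.7 and 21.4 CPM in NPMc_Flt3ITD, at 42.5 and 42.0 CPM in Flt3ITD and at 21.9 and 11.5 CPM in Mx (log2 fold change 1.35, SE 0.31, adjusted p = 0.0471). Dscc1, of the alternative clamp loader, was at 12.3 and 12.9 CPM in NPMc_Flt3ITD, at 15 and 21.0 CPM in Flt3ITD and at 4.91 and 7.07 CPM in Mx (log2 fold change 1.44, SE 0.33, adjusted p = 0.0464), so that it was higher than in Mx in the libraries of both mutant groups.

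Summed markers of cycling cells and of erythroid progenitors were highest in Flt3ITD, as the replication genes were, while the other lists given here had other patterns. Summed over 9 genes of G2 and mitosis, such as Mki67 and Ccnb1, the level was 429 and 469 CPM in NPMc_Flt3ITD, with 1100 and 949 CPM in Flt3ITD and with 468 and 516 CPM in Mx. Of these 9 genes 6 rose in Flt3ITD against Mx, where 2.12% of all genes tested rose, and 4 fell in NPMc_Flt3ITD against Flt3ITD, where 0.901% fell. The 10 erythroid progenitor markers summed to 192 and 118 CPM in NPMc_Flt3ITD, to 2086 and 2020 CPM in Flt3ITD and to 284 and 227 CPM in Mx. Of the 9 that were tested 5 rose in Flt3ITD against Mx and 5 fell in NPMc_Flt3ITD against Flt3ITD, beside the same 2.12% and 0.901% of all genes tested. Early markers such as Car1 carried this sum, while Hbb-b1, Alas2 and Slc4a1 were each below 4 CPM in every library, with Slc4a1 listed at 0 in 4 of the 6. The 10 LT-HSC markers summed to 1432 and 1164 CPM in NPMc_Flt3ITD, to 982 and 1061 CPM in Flt3ITD and to 1938 and 1962 CPM in Mx, and 5 of them fell in Flt3ITD against Mx, where 2.43% of all genes tested fell. The 5 multipotent progenitor markers summed to 1826 and 2232 CPM in NPMc_Flt3ITD, to 1518 and 1659 CPM in Flt3ITD and to 773 and 889 CPM in Mx, so that both mutant sums lay above Mx. Of the 5 genes 2, Cd48 and Plac8, rose in Flt3ITD against Mx, where 2.12% of all genes tested rose. Cd27 averaged 104 CPM in Flt3ITD and 162 CPM in Mx. It fell only with the block (log2 fold change -0.66, adjusted p = 0.130 in limma and 0.00989 with the block). Flt3 and Cd34, at log2 fold changes of -0.18 and 0.27, did not pass. The 8 granulocyte and monocyte markers in the table summed to 1201 and 1293 CPM in NPMc_Flt3ITD, to 432 and 1883 CPM in Flt3ITD and to 359 and 321 CPM in Mx. The part of these cell types in the replication gene results was not tested.

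Reads shared with neighbouring genes limit some members, since the strand setting of the authors' counting is not stated. By exon coordinates in GENCODE vM21, used for names only, 18 members overlap another gene, and 12 of them have such a neighbour among the genes tested. Of the 11 members that rose in Flt3ITD against Mx, this holds for Mcm7 (Ap4m1 and Cops6), Rfc4 (Eif4a2), Fen1 (Tmem258), Tk1 (Afmid) and Chaf1a (Ubxn6). None of these 6 neighbours passed in that comparison without the block. With it Tmem258 rose (adjusted p = 0.364 in limma and 0.0153 with the block) and Eif4a2 fell (0.0749 and 0.00635). Cops6 averaged 102 CPM in NPMc_Flt3ITD, 152 CPM in Flt3ITD and 114 CPM in Mx. It fell in NPMc_Flt3ITD against Flt3ITD only with the block (adjusted p = 0.122 in limma and 0.0247 with the block). In Flt3ITD against Mx, Afmid had a log2 fold change of 1.01 and Cops6 one of 0.42, while Ap4m1 and Ubxn6 had -0.30 and -0.13. The part of shared reads was not tested for any of the 12 members. Cdc6, Cdt1, Gmnn, Mcm10, Rrm2 and Dut have no such tested neighbour. Pcna and Tyms have pseudogenes named after them, so their values may hold reads of copies.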

How the data were processed

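Polyadenylated RNA of LT-HSC sorted from bone marrow was sequenced by a SMART-seq protocol, per the labels' protocols. Each gene has 1 deposited signal per library, which the file headers call normalized CPM. The submitters' processing notes name the mouse build mm9, TopHat2 2.1.0 and Bowtie2 2.2.4, HTSeq 0.6.1p1 and edgeR 3.20.7. Annotation, strand setting and the treatment of multiply matching reads are not given in the sources used. The values were whole multiples of 1 read within 0.01 reads for 100% of entries, and the reads recovered in this way were used for depth and for the edgeR 4.0.16 and DESeq2 1.42.0 alternatives. Reads carry no molecular identifiers and are not independent molecules.

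Genes with at least 1 CPM in at least 2 libraries were kept (12657, with 5340 removed), and limma 3.58.1 with an intensity trend was fitted in R 4.3.3 to log2(CPM + 1) of all 6 libraries, with group as the only term, Benjamini-Hochberg adjustment over all genes tested and a threshold of 0.05. Residual degrees of freedom were 3, raised to 8.67 by moderation, and the fit was tested on simulated data. The log2(CPM + 1) scale understates changes of low genes. Deviations of same-numbered libraries from their group means correlated across genes at 0.341 between NPMc_Flt3ITD and Flt3ITD, 0.316 between NPMc_Flt3ITD and Mx and 0.259 between Flt3ITD and Mx. The numbers were therefore taken to pair the libraries, although the labels do not say what they share. The members and lists were chosen with earlier results of these data known. Values by library are given for members past the threshold in any comparison, with or without the block, and for 14 genes whatever their values. Orc4, Xist, Ddx3y, Junb and Lat2 were named after their values were seen. Promoter windows are RefSeq sequences on GRCm38.p6, another build than that of the deposited table, and were joined by gene symbol only. Figures were drawn from these tables.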

Additional observations from a re-analysis of the deposited data

How the results depend on the processing

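For Flt3ITD against Mx, the 11 members called became 28 with the replicate block, 22 with DESeq2 and 7 when only the 2 groups compared were fitted. They became 6 with scaling to totals without Rn45s, 5 with edgeR's quasi-likelihood test and 0 with no filter. In the same order, the calls over all genes tested under each setting, in either direction, went from 576 to 2341, 1489, 337, 558, 301 and 0. For NPMc_Flt3ITD against Flt3ITD, the 3 members called became 28 with the replicate block, 23 with DESeq2, 6 with a filter of at least 5 CPM and 0 with no filter. The calls over all genes tested went from 149 to 1513, 1017, 187 and 0 in the same order. For NPMc_Flt3ITD against Mx the count was 0 under every alternative run. The cause of these differences was not tested. No called fold change turned its sign. Scaling to library totals put the median of all genes at -0.10 in Flt3ITD against Mx and at -0.11 in NPMc_Flt3ITD against Mx, and the members' medians at 0.45 and -0.18, so that the members stood 0.55 above all genes in Flt3ITD against Mx under this scaling as without it. The share of rises among all genes called in Flt3ITD against Mx was 28.8% under it and 27.2% without Rn45s, beside 46.5%, while every member called rose. Each member's value in a library rests on at least 221 reads, and each group on 2 libraries.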
